A study of Mus musculus with 20 samples.

Results

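Sox9 and Pkhd1, 2 genes of the bile duct epithelium, were followed in mouse livers after anti-CD40 treatment with and without ABX, the labels' term for antibiotics. They were chosen by name, with earlier results of these data known. They were 2 of 5552 mouse genes that could be read from the deposited count tables, and both were among the 2200 genes with enough counts to test. Liver RNA of 20 mice was sequenced, 5 mice in each of 4 groups, with 1 library a mouse. The groups were control mice without ABX (mice 6 to 10), control mice with ABX (mice 1 to 5), anti-CD40 mice without ABX (mice 16 to 20) and anti-CD40 mice with ABX (mice 11 to 15). The strain, age and sex of the mice, the antibody clone, its dose and timing, the antibiotics used and what the control mice received are stated in no source used here. Each library held between 5053014 and 7618736 counts, with a median of 6199078.

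Cholangiocytes are the epithelial cells that line the bile ducts. Sox9 encodes a transcription factor that marks these cells and is also switched on in hepatocytes that take on biliary features after injury. Pkhd1 encodes fibrocystin, a large membrane protein of the primary cilium, and its loss causes autosomal recessive polycystic kidney disease with malformed bile ducts. Both genes are used as markers of biliary cells, and in whole liver more biliary cells and more RNA per cell cannot be told apart. CD40 is a receptor on macrophages, dendritic cells, B cells and other cells.

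What was counted differed between the genes, because the authors' feature intervals came from a human annotation and each feature that lay over the exons of exactly 1 mouse gene stood for that gene. Sox9 (ENSMUSG00000000567.5) lies on the plus strand of mm10 at chr11:112782224-112787760 and has 3 exons. Its single counted feature, called a row below, lay over 419 of 4135 exon bases (10.1%), at chr11:112787304-112787722. That stretch is in the 3' UTR of exon 3 and ends 38 bases before the transcript does. The row had another interval of 413 bases that starts 7682 bases past the end of Sox9, and the counts of the intervals cannot be told apart. Pkhd1 (ENSMUSG00000043760.16) lies on the minus strand at chr1:20057779-20618064 and has 67 exons. Its 3 rows lay over 499 of 14310 exon bases (3.49%), all of them coding, in exons 23, 41, 45 and 50. Those rows also took in 11844 bases outside the exons of Pkhd1.

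**Figure D1:**
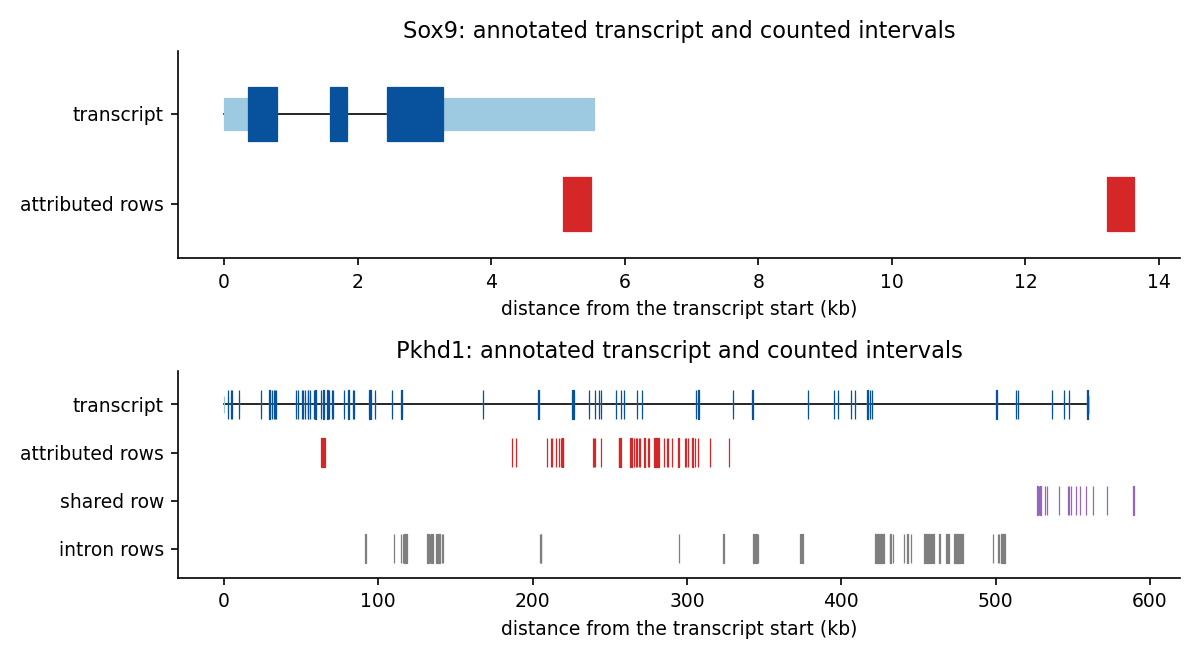
The annotated transcripts of Sox9 and Pkhd1 are drawn against the distance from the transcript start in kb, with coding parts as tall dark bars and untranslated parts as low pale bars, above the intervals of the counted rows. The Sox9 row has an interval at the 3' end of the gene and another beyond it, and the 3 rows of Pkhd1 lie in the 5' and middle parts of the gene, with a row shared with another gene near and past the 3' end.

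The exon stretches of rows 1 and 2 are shown because they are the exon bases of this large gene inside those rows. The sequences are taken from the GENCODE transcript record of Pkhd1, 5' to 3', with the counted bases in capitals and uncounted exon bases in lower case.
Exon 23 (row 1), chr1:20553469-20553596: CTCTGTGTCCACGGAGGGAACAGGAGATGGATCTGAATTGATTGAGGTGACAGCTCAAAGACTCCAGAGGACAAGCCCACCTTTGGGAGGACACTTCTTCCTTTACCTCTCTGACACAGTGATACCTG
Exon 41 (row 2), chr1:20377375-20377500: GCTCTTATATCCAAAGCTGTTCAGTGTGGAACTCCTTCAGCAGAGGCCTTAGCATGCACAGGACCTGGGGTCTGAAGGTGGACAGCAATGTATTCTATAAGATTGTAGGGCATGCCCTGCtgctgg
Exon 45 (row 2), chr1:20360986-20361091: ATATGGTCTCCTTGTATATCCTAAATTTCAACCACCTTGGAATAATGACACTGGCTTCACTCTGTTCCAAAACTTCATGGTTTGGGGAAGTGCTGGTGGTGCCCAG
Exons 23 and 45 were counted over their whole length of 128 and 106 bases, and exon 41 over 120 of 126 bases.

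The library of mouse 1, a control mouse with ABX, stood apart in some, but not all, of the other genes of the biliary list. Dmbt1, a secreted scavenger-receptor protein of mucosal and duct epithelia, had 3326 counts in mouse 1 and at most 6 in any other mouse. Ezr, which encodes the membrane linker ezrin of microvilli, was at 32.08 CPM (the count scaled to library size and normalised by the trimmed mean of M-values, TMM) in mouse 1 and between 3.794 and 7.196 in the other control mice with ABX. Mouse 1 was also the highest of its group for Itga3 and Bicc1, for Pkhd1 with 4.171 CPM, and for Ano1 of the bile secretion list. Its Sox9 level of 1.123 CPM lay inside the range of its group. So did its levels of 2 more biliary-list genes with few counts. Cftr was at 0.3209 CPM (others 0.1807 to 0.5535) and Slc5a1 at 0.1604 CPM (others 0 to 0.7228). The Sox9 and Pkhd1 differences that use the control mice with ABX are therefore also given without mouse 1. Of the other tested biliary, ductular, Notch, Hippo, cilium and SOX genes named below, leaving out mouse 1 changed the call of anti-CD40 against control with ABX only for Ezr and Itga3.

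Sox9 rose after anti-CD40, both without and with ABX, and its level in anti-CD40 mice was lower with ABX than without. Without ABX the control mice had 1.956, 2.262, 3.832, 1.485 and 1.516 CPM (mice 6 to 10; 2.21 ± 0.962, SD, n = 5), and the anti-CD40 mice had 16.99, 12.42, 16.66, 25.20 and 20.65 CPM (mice 16 to 20; 18.4 ± 4.80, SD, n = 5). The lowest anti-CD40 mouse was thus above the highest control mouse. How many of the 2200 genes had groups without overlap was not counted, here or in the comparisons below. Sox9 was 8.29-fold higher after anti-CD40, a log2 difference of 3.05 ± 0.25 (SE; 95% interval 2.53 to 3.58; adjusted p = 2.4e-10, edgeR quasi-likelihood test). In this comparison 60.6% of the 2200 genes passed an adjusted p of 0.05, and 31.8% passed it as higher.

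With ABX the control mice had 1.123, 1.084, 0.558, 2.298 and 2.03 CPM of Sox9 (mice 1 to 5; 1.42 ± 0.722, SD, n = 5). The anti-CD40 mice with ABX had 6.849, 7.309, 8.483, 8.317 and 7.563 CPM (mice 11 to 15; 7.70 ± 0.687, SD, n = 5). Again the groups did not overlap, and the anti-CD40 mice with ABX were the most even group, with a coefficient of variation of 8.92% against 26.1% without ABX. The rise was 5.38-fold, a log2 difference of 2.43 ± 0.29 (SE; adjusted p = 1.36e-07, edgeR), in a comparison where 51.5% of genes were called and 26.6% were called as higher. Without mouse 1 it was 2.35 (adjusted p = 1.05e-06, edgeR). The difference between the rises with and without ABX was -0.62 ± 0.41 on the log2 scale (SE; 95% interval -1.48 to 0.23; adjusted p = 0.372, edgeR; -0.70 without mouse 1) and did not pass the test, which 7.55% of genes passed (4.36% as higher and 3.18% as lower).

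**Figure D2:**
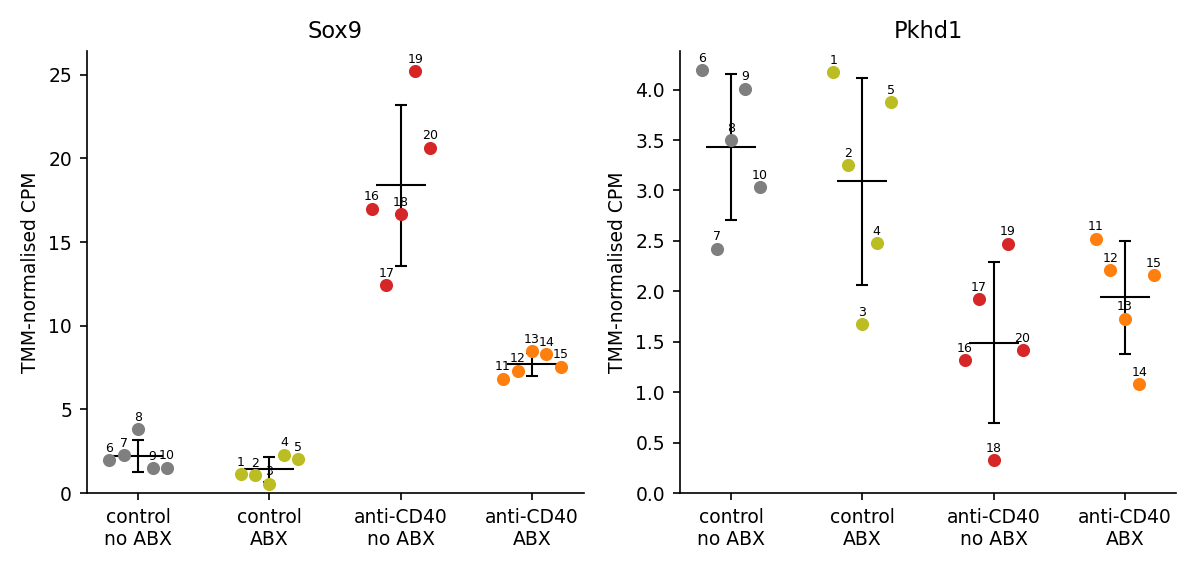
Each point is the CPM of Sox9 (left) or Pkhd1 (right) in 1 mouse, labelled with the mouse number, and the horizontal bar and whiskers are the mean and SD of 5 mice. Every anti-CD40 mouse lies above every control mouse for Sox9, while the Pkhd1 groups overlap.

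ABX was set against no ABX within each treatment. In control mice Sox9 was 0.62 ± 0.34 lower with ABX on the log2 scale (SE; a log2 difference of -0.62, adjusted p = 0.316, edgeR; -0.55 without mouse 1), and the groups overlapped. This did not pass the test, in a comparison where 6.68% of genes did (3.45% as higher and 3.23% as lower). In anti-CD40 mice the highest level with ABX, 8.483 CPM, was below the lowest level without ABX, 12.42 CPM. The log2 difference was -1.25 ± 0.22 (SE; 95% interval -1.70 to -0.80; adjusted p = 0.000484, edgeR), a level 2.38-fold lower with ABX, where 15.9% of genes were called, 8.68% as higher and 7.23% as lower. The well labels put the groups in different plate columns: all 5 anti-CD40 mice with ABX were in column 4, with 1 of the 5 anti-CD40 mice without ABX. With the plate column in the fit the difference was -1.14 (adjusted p = 0.155, edgeR), no longer past the threshold, and in column 4 the 5 mice with ABX were 1.11 log2 units below the 1 mouse without ABX (-1.11).

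Exact two-sided permutation tests of log2 CPM, with 5 mice against 5, gave p = 0.00794 for both anti-CD40 comparisons of Sox9 and for ABX in anti-CD40 mice, the smallest p this design can give (0.0212 after Benjamini-Hochberg adjustment over 8 tests). The exact test of ABX in control mice gave p = 0.167. Only Sox9 and Pkhd1 were given the exact test, so how often other genes reach its smallest p is not known. By these tests, which ignore the plate column, Sox9 was highest in anti-CD40 mice without ABX, then anti-CD40 mice with ABX, then control mice. The difference between the control groups did not pass, which does not show that they were alike.

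Pkhd1 moved the other way: it fell after anti-CD40 without ABX, and with ABX its lower level did not pass the test. Without ABX the control mice had 4.192, 2.424, 3.499, 4.009 and 3.033 CPM (mice 6 to 10; 3.43 ± 0.723, SD, n = 5), and the anti-CD40 mice had 1.32, 1.921, 0.3298, 2.474 and 1.418 CPM (mice 16 to 20; 1.49 ± 0.796, SD, n = 5). The groups overlapped in 1 pair, mouse 19 at 2.474 against mouse 7 at 2.424 CPM. The fall was 2.26-fold, a log2 difference of -1.18 ± 0.34 (SE; 95% interval -1.88 to -0.48; adjusted p = 0.00456, edgeR), where 28.8% of genes were called as lower. The exact permutation test gave p = 0.0159 (0.0317 adjusted over the 8 tests), with 24 of 25 pairs of mice in this direction. Once the plate column entered the fit, Pkhd1 was at -1.41 (adjusted p = 0.15, edgeR), no longer past the threshold.

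With ABX the control mice had 4.171, 3.252, 1.674, 2.475 and 3.875 CPM of Pkhd1 (mice 1 to 5; 3.09 ± 1.02, SD, n = 5). The anti-CD40 mice with ABX had 2.523, 2.21, 1.728, 1.078 and 2.161 CPM (mice 11 to 15; 1.94 ± 0.559, SD, n = 5), so the groups overlapped. The log2 difference of -0.68 ± 0.34 did not pass the test (SE; 95% interval -1.38 to 0.02; adjusted p = 0.0984, edgeR), and leaving out mouse 3, the lowest control, gave -0.83 (adjusted p = 0.049, edgeR). Without mouse 1 it was -0.54 (adjusted p = 0.222, edgeR). The exact permutation test gave p = 0.0873, with 20 of 25 pairs in the direction of a lower level. ABX did not move Pkhd1 past the test in either treatment: the log2 difference was -0.15 ± 0.32 in control mice and 0.35 ± 0.36 in anti-CD40 mice (SE; adjusted p = 0.848 and 0.556, edgeR), the former -0.29 without mouse 1. The anti-CD40 differences with and without ABX differed by 0.50 ± 0.48 (SE; 95% interval -0.50 to 1.49; adjusted p = 0.573, edgeR; 0.64 without mouse 1).

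**Figure D3:**
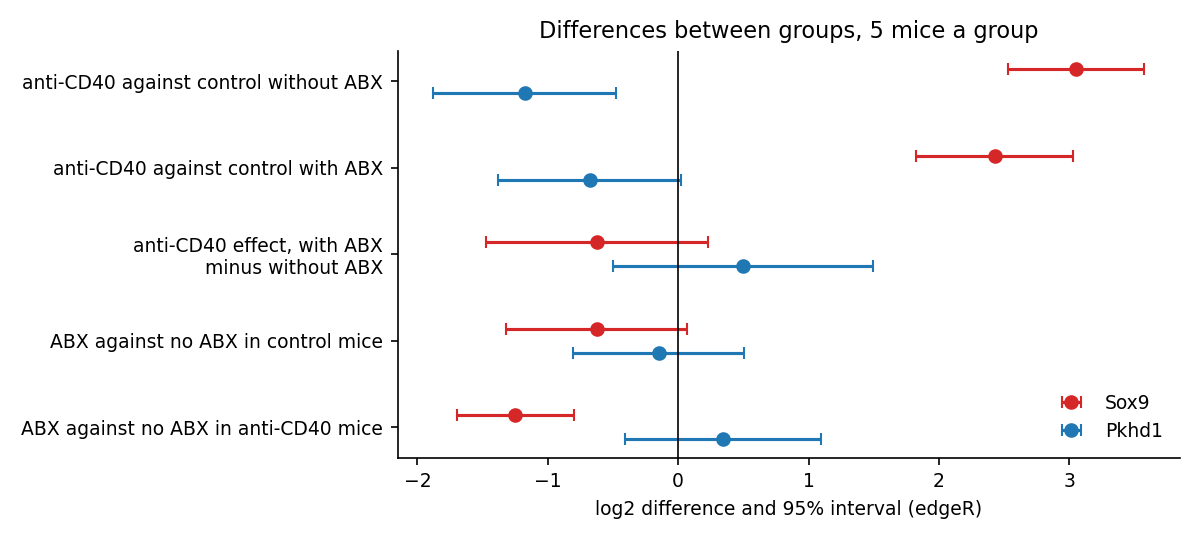
Points are log2 differences from the edgeR fit of all 20 libraries and bars are 95% intervals, for 5 comparisons of Sox9 (red) and Pkhd1 (blue). The Sox9 intervals lie above 0 in both anti-CD40 comparisons, and the Pkhd1 interval lies below 0 only without ABX.

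The Pkhd1 total rested on 308 counts over 20 mice, so its rows were also read apart. Row 1, over exon 23, had 37 counts in control mice and 22 in anti-CD40 mice without ABX (a log2 difference of -0.75 ± 0.48, SE, adjusted p = 0.181, edgeR), and row 2, over exons 41 and 45, had 54 and 24 counts (-1.19 ± 0.47, SE, adjusted p = 0.0325). Row 3, over exon 50, had 20 and 4 counts (-2.19 ± 0.75, SE, adjusted p = 0.0145). Each of the 3 rows, all parts of the same total, was thus lower after anti-CD40 without ABX, and 2 of the 3 passed the test. The filter on low counts was not applied to rows read apart, here or below, so these calls are not like those of the tested genes. The 4 counts of row 3 in anti-CD40 mice were 3 in mouse 17 and 1 in mouse 18. Of the 6377 bases of row 3 only 145 (2.27%) were exon bases, against 4.98% of row 1 and 6.66% of row 2. With ABX rows 1 and 2 were at -0.86 ± 0.52 and -0.90 ± 0.47, and row 3, with 15 counts in anti-CD40 mice and 12 in control mice, was at 0.20 ± 0.65 (SE; adjusted p = 0.173, 0.113 and 0.818, edgeR).

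A further row lay over 88 of the 123 bases of Pkhd1 exon 66 and also over Gm37315, a transcript on the same strand at chr1:20062070-20065548, and was left out of the Pkhd1 total. It had 70 and 29 counts in control and anti-CD40 mice without ABX, and 77 and 24 with ABX. Alone it fell by 1.28 ± 0.38 without ABX and by 1.79 ± 0.39 with ABX on the log2 scale (SE; adjusted p = 0.00553 and 0.000416, edgeR). With this row added, Pkhd1 was at -1.22 ± 0.23 without ABX and at -1.10 ± 0.23 with ABX (SE; adjusted p = 6.44e-05 and 0.000255, edgeR), so that the comparison with ABX passed. Only 88 of the 2607 bases of this row (3.38%) were exon bases of Pkhd1, and some of its intervals lay past the 3' end of the gene. Whether Pkhd1, Gm37315 or sequence outside their exons gave these reads cannot be told apart. Another 15 rows inside Pkhd1 lay over its introns only, with 143 counts, or 4.51 a kb against 24.95 a kb for the attributed rows. At that density the 11844 bases of the attributed rows outside exons would hold 53.4 of the 308 counts. Row 3 was the nearest to the intron level. Without ABX it had 3.14 counts a kb in control mice and 0.63 in anti-CD40 mice, and the intron rows had 1.61 and 0.57. The intron rows were at -1.49 ± 0.51 without ABX and at -0.99 ± 0.48 with ABX (SE; adjusted p = 0.0143 and 0.0884, edgeR).

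**Figure D4:**
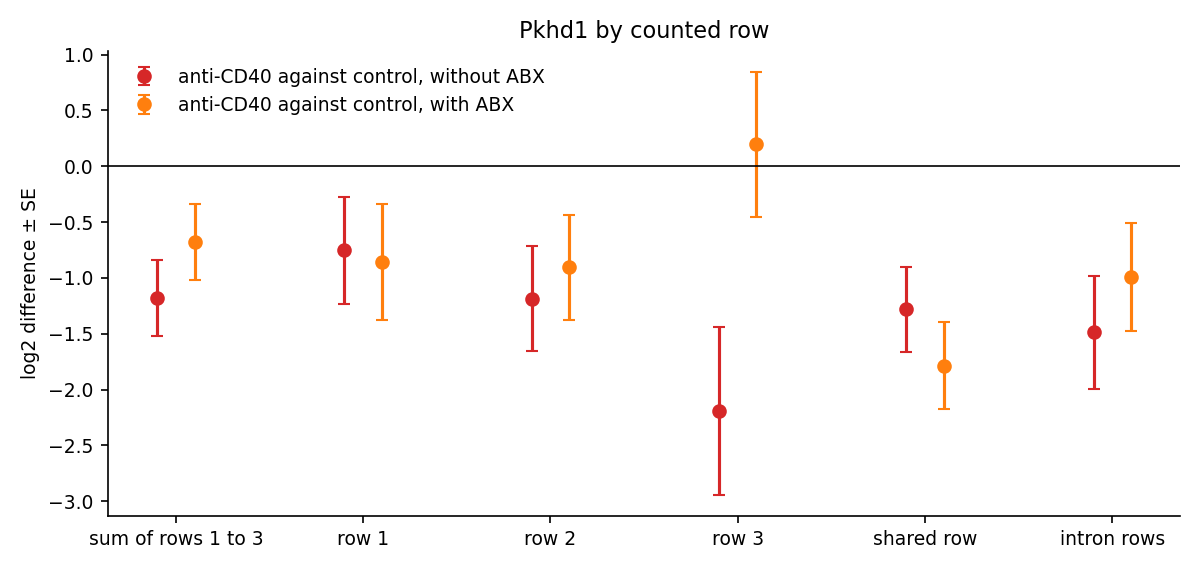
Points are log2 differences of anti-CD40 against control mice and bars are SE, without ABX (red) and with ABX (orange), for the Pkhd1 total, its 3 rows, the row shared with Gm37315 and the intron rows. All 6 values without ABX lie below 0, and row 3 with ABX lies at 0.20.

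The other measured genes of the biliary list did not all follow Sox9 or Pkhd1. Of 42 symbols 9 had a row over their exons, and 5 were tested. Without ABX 3 were higher (Sox9, Ezr and Itga3), 1 was lower (Pkhd1) and 1 did not pass, with a list median of 0.47 against 0.03 over all genes on the log2 scale. With ABX only Sox9 of the 5 passed, with a list median of 0.16 against 0.02. Of all genes tested, 31.8% were higher and 28.8% lower without ABX, and 26.6% were higher and 24.9% lower with ABX. Krt19, Krt7, Epcam and Spp1, usual defining markers, were not among the genes read here, and Cftr, the chloride channel of bile ducts, had 15 counts in all. Prom1 was at 0 counts in all 20 mice, but was read over only 108 exon bases, which does not show that it was silent.

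Ezr was between 5.655 and 10.66 CPM in control mice and between 17.97 and 38.41 CPM in anti-CD40 mice without ABX, with no overlap (a log2 difference of 1.93 ± 0.46, SE, adjusted p = 0.00155, edgeR). With ABX it was between 13.12 and 21.76 CPM in anti-CD40 mice, against 3.794 to 7.196 in control mice 2 to 5 and 32.08 in mouse 1. The log2 difference with ABX was 0.65 (adjusted p = 0.253, edgeR) with mouse 1 and 1.66 ± 0.27 (SE, adjusted p = 1.95e-05) without it, so that mouse 1 decided the call. Itga3, an integrin subunit that binds laminin, was at 0.47 ± 0.17 without ABX (SE, adjusted p = 0.0216, edgeR), a call that was lost without mouse 10 (0.42, adjusted p = 0.0555) or mouse 18 (0.40, adjusted p = 0.0716). With ABX Itga3 was at 0.16 (adjusted p = 0.488, edgeR), and at 0.39 without mouse 1 (adjusted p = 0.0409). Bicc1, an RNA-binding protein whose loss gives cystic ducts, was at -0.81 ± 0.47 and -0.74 ± 0.49 without and with ABX (SE; adjusted p = 0.142 and 0.211, edgeR), and the value with ABX was -0.12 ± 0.48 without mouse 1 (SE, adjusted p = 0.859).

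**Figure D5:**
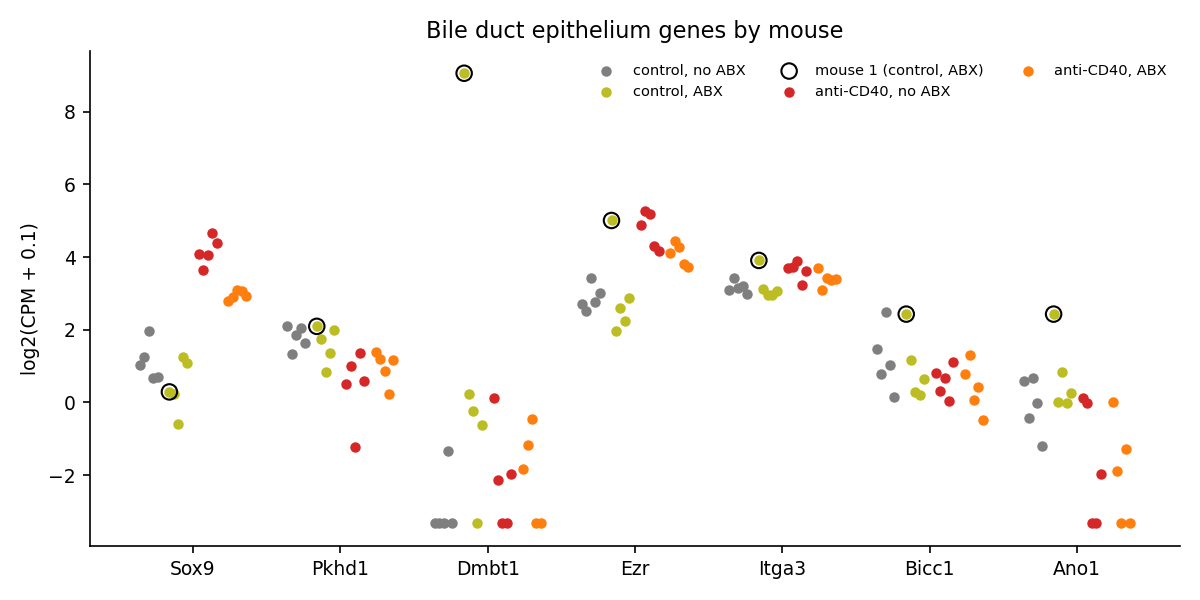
Each point is log2(CPM + 0.1) in 1 mouse for 7 genes of bile duct epithelium, coloured by group, with mouse 1 ringed. Mouse 1 is far above the other mice for Dmbt1 and the highest of its group for Ezr, Itga3, Bicc1 and Ano1, and it is inside its group for Sox9. Cftr and Slc5a1, where mouse 1 was also inside its group, are not drawn.

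Genes of ductular reactions and progenitor cells, which overlap the biliary list in Sox9, moved in both directions. Of 6 tested genes 2 were higher and 3 lower without ABX, and 3 were higher and 2 lower with ABX, beside 31.8% higher and 28.8% lower of all genes without ABX and 26.6% and 24.9% with ABX. Fgfr2, a receptor for fibroblast growth factors, rose from 17.2 ± 2.93 to 65.95 ± 11.2 CPM without ABX (SD, n = 5; a log2 difference of 1.93, adjusted p = 1.54e-11, edgeR) and was at 1.18 with ABX (adjusted p = 4.81e-08). Afp, the fetal serum protein alpha-fetoprotein, fell, with log2 differences of -1.66 without ABX and -3.2 with ABX (adjusted p = 0.000253 and 3.38e-07, edgeR). Lgr4, a receptor for R-spondins, was at 0.15 without ABX (adjusted p = 0.228, edgeR) and rose by 0.46 with ABX (adjusted p = 0.000678).

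Notch signalling acts upstream of Sox9 in bile duct development, and its measured genes were divided. Of 5 tested genes 2 were higher and 2 lower in each anti-CD40 comparison, where 60.6% (without ABX) and 51.5% (with ABX) of all genes were called. The receptor Notch2 rose by 0.29 and 0.75 on the log2 scale without and with ABX (adjusted p = 0.00523 and 7.45e-08, edgeR). The protease Adam17, which cleaves Notch receptors, rose by 1.06 and 1.11 (adjusted p = 3.49e-06 and 3.38e-06, edgeR). The target gene Hes1, a repressor, fell from 25.1 ± 5.03 to 7.64 ± 2.37 CPM without ABX (SD, n = 5; a log2 difference of -1.70, adjusted p = 2.34e-07, edgeR) and by 1.97 with ABX (adjusted p = 1.93e-07). Mib1, a ubiquitin ligase that acts on Notch ligands, fell by 1.21 and 0.68 (adjusted p = 7.1e-07 and 0.000964, edgeR), the latter at -0.32 (adjusted p = 0.142) when scaled by library totals.

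The Hippo pathway also bears on biliary fate, through the co-activator YAP. Of its 8 tested genes 3 were higher and 4 lower without ABX, and 1 was higher and 2 lower with ABX, beside 31.8% higher and 28.8% lower of all genes without ABX and 26.6% and 24.9% with ABX. Ankrd1, a YAP target, was between 0.1685 and 0.9695 CPM in control mice without ABX and between 1.418 and 11.71 after anti-CD40 (a log2 difference of 3.16 ± 0.59, SE, adjusted p = 6.95e-05, edgeR), and was at 1.02 with ABX (adjusted p = 0.216). Amotl1, a scaffold that binds YAP, fell by 1.35 and 2.49 (adjusted p = 0.0112 and 0.000145, edgeR).

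Pkhd1 was also read beside the genes of polycystic liver disease and the primary cilium. Of 15 tested genes 3 were higher, 3 lower and 9 not called without ABX, and 3 were higher, 1 lower and 11 not called with ABX, with list medians of 0.28 and 0.06 on the log2 scale. Of all genes, 60.6% were called without ABX and 51.5% with ABX. Ift57, a subunit of intraflagellar transport, rose by 2.46 and 1.97 from control levels of at most 1.302 CPM (adjusted p = 0.000105 and 0.000643, edgeR). B9d1, of the ciliary transition zone, rose by 1.66 and 2.37 (adjusted p = 0.00211 and 0.000268, edgeR). Without mouse 1 the rise of B9d1 with ABX was 3.31 (adjusted p = 1.25e-05, edgeR). Lrp5, a Wnt co-receptor, fell by 0.51 and 0.68 (adjusted p = 1.46e-05 and 3.22e-07, edgeR). Sox5, the other measured gene of the SOX family, was at -0.11 without ABX (adjusted p = 0.582, edgeR; 0.13 with library totals) and fell by 0.96 with ABX (adjusted p = 1.34e-05). With the plate column in the fit, these calls no longer passed: Ezr (2.03), Itga3 (0.60), Notch2 (0.23) and Amotl1 (-0.56) without ABX, and Lgr4 (0.44), Mib1 (-0.55) and Ift57 (2.79) with ABX, with adjusted p from edgeR between 0.0509 and 0.655.

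Markers of other liver cells moved in the same comparisons, and their part in the Sox9 and Pkhd1 results was not tested. The 7 measured of 28 hepatocyte markers summed to between 211400 and 232800 CPM in control mice without ABX and between 61330 and 91880 after anti-CD40. With ABX the ranges were 224600 to 302900 and 91340 to 125400 CPM. Alb and Serpina1e made up most of these sums, with means of 159600 and 57090 CPM in control mice without ABX. Of 6 tested hepatocyte markers 1 was higher and 5 lower without ABX, and 1 was higher and 4 lower with ABX. Of all genes, 31.8% were higher and 28.8% lower without ABX, and 26.6% and 24.9% with ABX. The marker that was higher was Fgfr4, at 0.74 and 0.55 on the log2 scale (adjusted p = 5.46e-06 and 0.000292, edgeR). The 5 measured of 14 macrophage markers ranged from 127.1 to 352.9 CPM in control mice and from 283.2 to 1103 CPM after anti-CD40 without ABX, and from 129.2 to 197.1 and from 306.8 to 914.5 CPM with ABX. Lyz2, the lysozyme of macrophages and other myeloid cells, made up most of that sum, with means of 123 and 612 CPM without ABX. The macrophage genes did not move together: 2 were higher and 2 lower without ABX, and 3 were higher and 2 lower with ABX. Without ABX Lyz2 and Ms4a7 rose by 2.32 and 2.25 on the log2 scale, while Adgre1, which encodes F4/80, was at -2.50 and the mannose receptor gene Mrc1 at -5.63 (adjusted p = 8.79e-05, 7.1e-07, 1.63e-05 and 4.93e-10, edgeR). Endothelial markers (5 of 16 measured) ranged from 111.8 to 158.3 CPM in control mice and from 28.21 to 111.5 CPM after anti-CD40 without ABX, and from 107 to 135 and from 17.13 to 82.01 CPM with ABX. Of 4 tested endothelial genes 2 were lower and 2 not called without ABX, and 3 were lower and 1 not called with ABX. Those not called without ABX were Stab1 (0.15) and Pecam1 (-0.19; adjusted p = 0.629 and 0.777, edgeR). Of 22 stellate cell and portal fibroblast markers 2 were measured, the matrix genes Col3a1 and Lum. Neither passed without ABX (-1.03 and -0.45, adjusted p = 0.139 and 0.442, edgeR), and both fell with ABX (-2.29 and -1.50, adjusted p = 0.00532 and 0.0198), where Lum did not pass without mouse 11 (-1.32, adjusted p = 0.0508). The anti-CD40 mice with the lowest level of the endothelial gene Pecam1 were mice 14, 15, 19 and 20. Without those mice Sox9 was at 2.77 and 2.38 and Pkhd1 at -1.49 and -0.55 on the log2 scale, without and with ABX, with the same calls. The endothelial gene Stab2, which had the largest fall of the 4 tested, was low in every anti-CD40 mouse, the kept ones included. It was at most 6.6 and 8.11 CPM without and with ABX, against at least 41.64 and 42.99 CPM in control mice. This fit therefore does not test a part of endothelial cells in those results.

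By Pearson r of log2 CPM over the 20 libraries, the 5 genes most like Sox9 were Pcx, Pcsk5, Foxp4, Flot1 and St6gal1, with r from 0.943 to 0.956. After the group means were subtracted the r of these genes fell to between 0.202 and 0.545. Those most like Pkhd1 were Pard3b, Minpp1, Cpped1, Nrep and Fam126b, with r from 0.766 to 0.811, and from 0.52 to 0.585 after subtraction. These values describe libraries that share groups and depth.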

How the data were processed

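The authors deposited 1 count table a library, made per the file headers with featureCounts 1.5.0-p2 on exons of a human GRCh38 annotation (Ensembl) in paired mode without strand. The submitters' processing notes name Trimmomatic 0.38, HISAT2 2.1.0 and the mm10 build. Interval positions were therefore read as mm10, and a feature over exons of exactly 1 GENCODE mouse gene by at least 50 bases was given to that gene (7463 of 58395 features; bedtools 2.31.1). The 52.3% of counts that fell on features touching more than 1 gene were left out.

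Counts were tested with edgeR 4.0.16 (quasi-likelihood, robust, TMM, filterByExpr, library sizes over all features) in 1 fit of 4 group means, with Benjamini-Hochberg adjustment over 2200 genes. SE is the log2 difference over the root of F. Exact permutation tests used SciPy 1.17.1. Each mouse is a separate animal. The fit was also run on simulated data in which a single group differed, in fewer genes than were called here, with no plate effect. That run therefore does not cover the plate layout or the wide change of these data. Alternatives covered scaling, filter, plate column, robust estimation, overlap of 1 or 100 bases, DESeq2 1.42.0, rows and libraries left out.

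The genes and the 17 gene lists were chosen with earlier results of these data known. From each list up to 4 genes with the smallest p in the anti-CD40 comparisons could be named, as could the 5 genes most like each of Sox9 and Pkhd1. Bicc1, Dmbt1, Ano1, Cftr and Slc5a1 were added after their values were seen. The shared-row and intron readings of Pkhd1 and the fit without mice 14, 15, 19 and 20 were also chosen after seeing the data. The sequence of row 3 is not reported here.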

Additional observations from a re-analysis of the deposited data

Results flagged for a closer look

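In 112 groups of 5 mice, over 28 genes, 10 held a mouse far from the other 4. Of the 10, 6 were in the 5 genes added after their values were seen, and no chance rate applies to those. In the other 23 genes 4 of 92 groups held such a mouse, where chance gives about 1 in 20, or 4.6. Of the 10, 5 were mouse 1 among the control mice with ABX: Dmbt1 at 533.6 CPM (others 0 to 1.084), Ezr at 32.08 (3.794 to 7.196), Itga3 at 14.92 (7.6 to 8.673), Ano1 at 5.294 (0.8837 to 1.674) and Bicc1 at 5.294 (1.061 to 2.168). Ano1 is a chloride channel. In control mice without ABX, Ift57 was at 0.9695 CPM in mouse 7 (others 0.297 to 0.4192), Cftr was at 0.1616 CPM in mouse 7 (others 0) and Dmbt1 was at 0.297 CPM in mouse 9 (others 0). In anti-CD40 mice, Dmbt1 was at 0.9899 CPM in mouse 16 without ABX (others 0 to 0.1576), and Sox5 was at 15.64 CPM in mouse 12 with ABX (others 22.15 to 24.49). The Cftr value and the Dmbt1 values outside mouse 1 rest on few counts.

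The anti-CD40 effect differed with ABX from that without ABX in 4 of 23 genes examined, where 7.55% of all genes passed the edgeR test. Apart from Sox9 and Pkhd1, these genes were picked by small p in the anti-CD40 comparisons, which share their data with this test. Their share can therefore not be set against that of all genes. The difference, with ABX minus without, was -0.75 ± 0.19 for Fgfr2 (SE, adjusted p = 0.0187), -1.54 ± 0.46 for Afp (adjusted p = 0.0486), 0.458 ± 0.12 for Notch2 (adjusted p = 0.0246) and -0.854 ± 0.22 for Sox5 (adjusted p = 0.0202). With the plate column in the fit no gene passed this test.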

How the results depend on the processing

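No paired analysis was possible because mouse numbers are not shared between groups. Both anti-CD40 calls of Sox9 kept their direction and call in every alternative run. With ABX, however, all 5 control mice were in plate column 3 and all 5 anti-CD40 mice in column 4. That comparison shares no column, so the plate term could not separate plate from treatment among its own mice. Without ABX only column 4 held both groups, with 1 anti-CD40 mouse and 2 control mice. With the plate column as a term, Sox9 with ABX in anti-CD40 mice (-1.137) and Pkhd1 without ABX (-1.406) no longer passed. The counts of genes called were then 735, 690, 0, 77 and 5 in the 2 anti-CD40 comparisons, their difference and the 2 ABX comparisons, against 1333, 1133, 166, 147 and 350. At an unadjusted p under 0.05 edgeR counted 282 genes for the difference with the plate term and 527 without it. DESeq2, run without the term only, called 201 by adjusted p. Plate column and group overlap, so they cannot be fully told apart. Without mice 14, 15, 19 and 20 the difference had 79 calls and ABX in anti-CD40 mice 170.

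Leaving out each mouse gave 1262 to 1349, 1047 to 1154, 88 to 194, 89 to 157 and 225 to 380 calls in the same order. The difference fell to 109, 110, 104, 88 and 94 without mice 4, 5, 10, 14 and 18, ABX in control mice to 90 and 89 without mice 4 and 10, and ABX in anti-CD40 mice to 225 and 230 without mice 14 and 18. Pkhd1 ranged from -1.441 to -0.9439 without ABX and from -0.8311 to -0.5332 with ABX.

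By row, Pkhd1 without ABX was at -0.7532 from row 1, where the difference was -0.105 and ABX in anti-CD40 mice -0.2573, and row 3 with ABX was at 0.1959. With the shared row Pkhd1 was at -1.102 with ABX, and ABX in control mice at 0.04848. The shared row alone gave -1.785 with ABX, -0.5043 for the difference, and 0.3142 and -0.1901 for ABX in control and anti-CD40 mice. Intron rows gave 0.09804 for ABX in control mice. Library totals in place of TMM moved the median of all genes to 0.272 and 0.371 in the anti-CD40 comparisons, and the share of calls that were higher from 52.5 to 69.7% and from 51.6 to 76.8% (for the difference from 57.8 to 80.3%, for ABX in control mice from 51.7 to 20.1%). With library totals the log2 differences themselves, with those medians not taken off, were 3.28 and 2.78 for Sox9 and -0.93 and -0.35 for Pkhd1. Sox5 without ABX turned to 0.1281 with library totals and 0.0809 with the plate term, and Lum without ABX to 0.01033 without the 4 mice and to between -0.9106 and 0.06445 when 1 mouse was left out. The causes were not tested. Low counts limit Pkhd1: 2 to 30 counts a mouse.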

Other observations

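Counts for gene lists not described above are given as values, beside 60.6% of all genes called after anti-CD40 without ABX (31.8% higher) and 51.5% with ABX (26.6% higher). In the edgeR fit, of 4 tested TGF-beta pathway genes 0 were higher and 1 was lower after anti-CD40 without ABX, and 1 was higher and 0 lower with ABX. Of 4 tested Wnt and beta-catenin genes 0 were higher and 2 lower without ABX, and 1 was higher and 1 lower with ABX. Of 3 tested proliferation genes 0 were called without ABX, and 1 was higher and 1 lower with ABX. Of 3 tested lymphocyte and neutrophil markers 2 were higher without ABX and 3 with ABX. Of 18 pancreas and gut epithelium markers 1 had a row over its exons and 0 had enough counts to be tested.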
